A study of Mus musculus with 10 samples.

Results

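The genes described here mark naive and resting T cells: Ccr7, Tcf7, Lef1, Il7r, Klf2, S1pr1, Il6ra, Il6st and Igfbp4. All probe sets that the array annotation paired with one of these symbols were taken, which gave 19 of 45037 probe sets and 8 of the 9 genes, against 18193 genes measured in all. Of the 19, 18 were above the array median on at least 3 arrays, and each of the 8 genes had such a probe set. No probe set was paired with Tcf7 in the annotation used, so it has no value here. The genes were chosen with earlier results of these data known, and every difference between genotypes below is therefore a description of the arrays without a test.

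RNA came from T cells positive for CD4 and CD25, a gate used for regulatory T cells (Treg cells). They were isolated with a kit from combined lymph node sites of BALB/c mice aged 17 to 19 days. The gate alone does not show that every cell was a Treg cell. The 3 genotypes were homozygous (me, motheaten phenotype, 3 arrays), heterozygous (he, 3 arrays) and wild type (WT, 4 arrays) for an SHP-1 knockout. SHP-1 is the tyrosine phosphatase encoded by Ptpn6, and motheaten mice, which lack it in all cells, develop severe inflammation. The cells were neither treated nor cultured. Arrays are labelled as biological replicates, without a statement that each came from its own animal. If several shared one, the spread between them is partly technical.

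Naive and resting T cells leave the thymus, circulate through lymph nodes and stay out of the cell cycle. The transcription factors TCF-1 (Tcf7) and LEF-1 hold the naive programme, and KLF2 maintains quiescence and drives S1pr1, the receptor for sphingosine 1-phosphate through which T cells leave lymph nodes. CCR7 brings T cells into the lymph node along its chemokine ligands, and the interleukin 7 receptor alpha chain (Il7r) carries the survival signal of resting cells. Il6ra is the ligand-binding chain of the interleukin 6 receptor, and Il6st encodes gp130, the chain through which interleukin 6 and its relatives signal. T cells lose much of this set when antigen activates them, and activated Treg cells express little Ccr7 and Il7r. Igfbp4 encodes a secreted protein that binds insulin-like growth factors and is a transcript of naive T cells in the mouse.

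Promoter windows were available for 7 of the 9 genes from RefSeq (GRCm38.p6), each running from 250 bases before to 50 bases after an annotated start. The windows of the interleukin 6 receptor chains, of Il7r and of Igfbp4 are shown because Il6ra separated the me arrays, Il6st is its signalling partner, and Il7r and Igfbp4 had the widest ranges over the arrays. Il6ra lies at chr3:89913147-89913446 on the minus strand, Il6st at chr13:112463820-112464119 on the plus strand, Il7r at chr15:9529827-9530126 on the minus strand and Igfbp4 at chr11:99040994-99041293 on the plus strand. Capitals mark matches, searched on both strands, to 5 strings of letters. The FOXO string was GTAAACA. For KLF factors CCACCC was searched, and for TCF and LEF factors CTTTGA. The STAT string was TTCNNNGAA, and TATAAA stood for a TATA box, a string added once the sequences had been read.
Il6ra: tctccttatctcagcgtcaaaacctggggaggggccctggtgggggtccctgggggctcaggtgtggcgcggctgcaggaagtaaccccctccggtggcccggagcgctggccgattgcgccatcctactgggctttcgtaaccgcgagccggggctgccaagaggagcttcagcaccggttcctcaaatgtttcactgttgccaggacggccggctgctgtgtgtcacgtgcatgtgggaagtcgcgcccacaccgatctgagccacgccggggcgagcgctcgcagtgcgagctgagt
Il6st: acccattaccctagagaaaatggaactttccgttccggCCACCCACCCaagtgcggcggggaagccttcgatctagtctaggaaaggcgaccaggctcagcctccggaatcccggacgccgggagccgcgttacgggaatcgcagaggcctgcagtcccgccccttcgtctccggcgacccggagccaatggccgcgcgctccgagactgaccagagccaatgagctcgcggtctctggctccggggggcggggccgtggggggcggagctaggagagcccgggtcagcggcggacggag
Il7r: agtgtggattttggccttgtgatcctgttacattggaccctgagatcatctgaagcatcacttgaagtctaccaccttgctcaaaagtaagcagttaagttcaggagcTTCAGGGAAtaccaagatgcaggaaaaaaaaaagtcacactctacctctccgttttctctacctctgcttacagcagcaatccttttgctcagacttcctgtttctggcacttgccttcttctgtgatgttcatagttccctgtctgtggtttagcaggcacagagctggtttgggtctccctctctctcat
Igfbp4: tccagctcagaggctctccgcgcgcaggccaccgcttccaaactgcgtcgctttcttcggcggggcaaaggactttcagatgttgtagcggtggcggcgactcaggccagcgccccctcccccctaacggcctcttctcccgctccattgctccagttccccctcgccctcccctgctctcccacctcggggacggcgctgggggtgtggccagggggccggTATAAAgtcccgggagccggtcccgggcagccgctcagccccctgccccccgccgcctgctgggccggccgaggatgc
The Il6ra window held no match to any of the 5 letter strings. The Il6st window held 2 overlapping KLF matches, the Il7r window 1 STAT match and the Igfbp4 window 1 TATA match. Of 32851 windows of this length, 31.5% held a KLF match, 8.3% a STAT match, 13.6% a TATA match, 16% a TCF and LEF match and 3.65% a FOXO match. Content of G and C was 66% in the Il6ra window, 68.3% in Il6st, 71.3% in Igfbp4 and 45.7% in Il7r. A match is a string of letters and not a binding site, and a window without one says nothing of the factor.

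Values are log2 of the deposited intensity plus 32, quantile normalised between arrays, and a difference of 1 on this scale is close to a doubling for bright probe sets and understates change at dim ones. Affymetrix probe sets of one gene read different stretches of its transcripts, so levels are compared between arrays and never between probe sets. The arrays formed 2 sets by correlation, A (me 1, me 3, he 1, WT 1, WT 2) and B (me 2, he 2, he 3, WT 3, WT 4), and every genotype had arrays in both. Xist and Eif2s3y marked me 1, me 2, WT 2 and WT 4 as male and the other 6 arrays as female. Ptpn6 followed the labels, with log2 values of 8.84 to 9.08 in me, 9.30 to 9.54 in he and 9.55 to 9.83 in WT at its brighter probe set (me against WT by a 2-sided exact permutation test, p = 0.0571, the smallest these group sizes allow). Cd3e, Cd4 and Foxp3, 3 of the markers of T cells and Treg cells used below, were above the array median on all 10 arrays.

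Il6ra was lower in me than in both other genotypes at its brighter probe set, and it was the member that differed most between me and WT. At probe set 1452416_at the log2 level was 9.29, 9.26 and 9.57 in me 1 to 3, 10.35, 10.19 and 9.59 in he 1 to 3, and 10.14, 10.39, 10.19 and 9.70 in WT 1 to 4. Every me array lay below every he and every WT array, while he 3 and WT 4 lay well below the rest of their genotypes. The log2 difference was -0.73 ± 0.21 (SE) for me minus WT, a 1.66-fold lower level, and -0.67 ± 0.22 for me minus he. The he minus WT difference was -0.06 ± 0.21, and he and WT overlapped. In order of mean level WT (10.11 ± 0.29, SD, n = 4) and he (10.04 ± 0.40, n = 3) did not differ beyond their spread, and me (9.37 ± 0.17, n = 3) was lowest.

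The size of this Il6ra difference was similar with array set in the fit and without single arrays. With array set as a block the me minus WT difference was -0.79 ± 0.17, and within sets A and B it was -0.84 and -0.68. Leaving out each array in turn gave -0.87 to -0.64, and -0.87 without WT 4 and he 3. The sign within sets is fixed once the groups do not overlap and adds nothing of its own. Among 18193 genes, 31 (0.17%) had an me minus WT difference of -0.5 or below at their brightest probe set, and Il6ra was one of them. Since Il6ra was chosen with earlier results of these data known, its place among them is a description only.

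The dimmer Il6ra probe set did not show this pattern. At 1422270_a_at the log2 level was 7.61, 7.83 and 7.68 in me, 7.77, 7.96 and 8.06 in he, and 7.70, 7.71, 7.59 and 7.66 in WT, with 2 of 10 arrays below the array median. Here me and WT overlapped (0.04 ± 0.09), while every he array was above every WT array (0.26 ± 0.09). The 2 probe sets had a Pearson r of 0.05 over the 10 arrays after the mean of the array set was taken from each value, a description only. With the mean of both probe sets the me minus WT difference for Il6ra was -0.35.

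**Figure D1:**
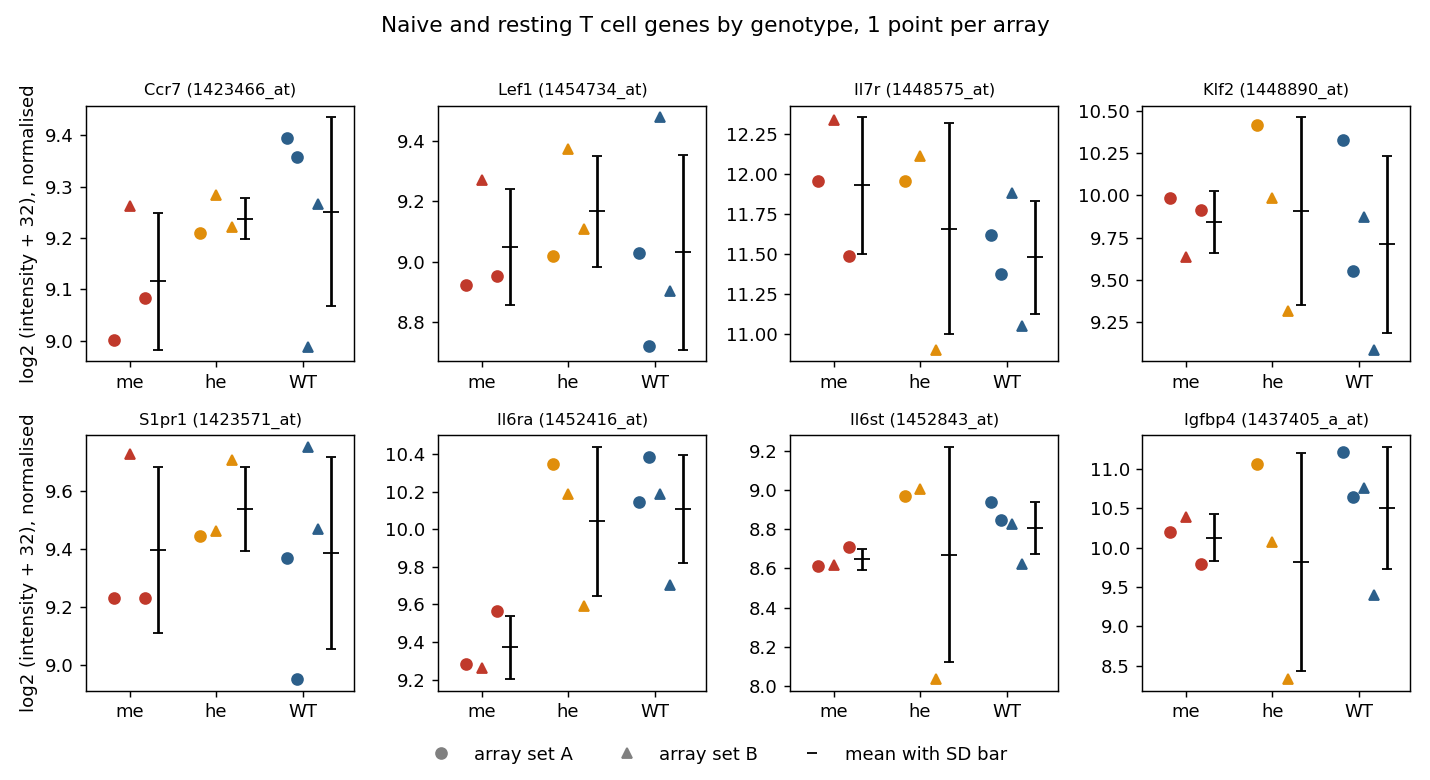
Normalised log2 intensity (vertical axis) of 8 genes at the brightest probe set of each, by genotype (me, he, WT), with circles for array set A, triangles for array set B and a bar for the mean and SD. For Il6ra the 3 me arrays sit between 9.26 and 9.57, below all he and WT arrays, while for the other 7 genes me and WT overlap.

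Il6st, the signalling partner of Il6ra, was somewhat lower in me at its 2 brighter probe sets, with overlap. At 1437303_at the log2 level was 8.02, 7.89 and 8.09 in me, 8.35, 8.47 and 7.76 in he, and 8.54, 8.26, 8.23 and 7.95 in WT. The me arrays lay near WT 4, the lowest WT array, and he 3 was the lowest array of all. The me minus WT difference was -0.25 ± 0.18, or -0.29 ± 0.16 with array set as a block. At the brightest probe set, 1452843_at, the level was 8.61, 8.62 and 8.71 in me, 8.97, 9.004 and 8.04 in he, and 8.94, 8.85, 8.82 and 8.62 in WT, a difference of -0.16 ± 0.21 for me minus WT. The he minus WT difference at 1452843_at was -0.14 ± 0.21 and rested on he 3, since without that array it was 0.18. The other 2 Il6st probe sets were dim. Their me minus WT differences were -0.08 ± 0.16 at 1421239_at and -0.05 ± 0.06 at 1460295_s_at, and the last was below the array median on all 10 arrays.

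Il7r pointed the other way from the interleukin 6 receptor chains. At 1448575_at its log2 level was 11.96, 12.34 and 11.49 in me, 11.96, 12.11 and 10.91 in he, and 11.62, 11.38, 11.88 and 11.05 in WT. The genotypes overlapped, and he 3 and WT 4 were the lowest arrays. The me minus WT difference was 0.45 ± 0.33 and the he minus WT difference 0.18 ± 0.33. At 1448576_at these were 0.24 ± 0.36 and 0.31 ± 0.36, within the spread of the arrays. Both probe sets moved together over the arrays, with a set-centred Pearson r of 0.97 (10 arrays, a description). Leaving out each array in turn gave 0.24 (without me 2) to 0.67 (without me 3), and 0.30 without WT 4, for me minus WT at 1448575_at.

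The transcription factors of the set differed little between genotypes. Lef1 at 1454734_at was 8.92, 9.27 and 8.95 in me, 9.02, 9.37 and 9.11 in he, and 9.03, 8.72, 9.48 and 8.90 in WT. Its me minus WT difference was 0.02 ± 0.18 there and 0.01 ± 0.12 at 1421299_a_at, and the he minus WT differences were 0.14 ± 0.18 and -0.01 ± 0.12. Klf2 at 1448890_at was 9.98, 9.63 and 9.91 in me, 10.42, 9.98 and 9.31 in he, and 10.33, 9.55, 9.87 and 9.09 in WT. The me arrays lay in the middle of the WT range, and he 3 and WT 4 were again the lowest. Klf2 differed by 0.13 ± 0.32 for me minus WT and by 0.20 ± 0.32 for he minus WT, and the first changed sign in 7 of the 37 other settings tried.

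The receptors that guide T cells into and out of lymph nodes also overlapped between genotypes. Ccr7 at 1423466_at was 9.002, 9.26 and 9.08 in me, 9.21, 9.28 and 9.22 in he, and 9.39, 9.36, 8.99 and 9.27 in WT. Its me minus WT difference was -0.14 ± 0.11, but it was -0.33 within set A and 0.13 within set B, where WT 3 was the lowest array. S1pr1, which KLF2 drives, was 9.23, 9.73 and 9.23 in me, 9.45, 9.46 and 9.71 in he, and 9.37, 8.95, 9.75 and 9.47 in WT at 1423571_at. It differed by 0.01 ± 0.19 for me minus WT and by 0.15 ± 0.19 for he minus WT. For both genes he 3 and WT 4 lay inside the range of the other arrays, unlike for Klf2 and Il7r.

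Igfbp4 had the widest spread of all members, and most of it lay within genotypes. At its brightest probe set, 1437405_a_at, the log2 level was 10.20, 10.39 and 9.79 in me, 11.07, 10.06 and 8.33 in he, and 11.21, 10.64, 10.76 and 9.40 in WT. The range over arrays was 2.88, with he 3 and WT 4 at the bottom and WT 1 and he 1 at the top. The me minus WT difference was -0.37 ± 0.62 and the he minus WT difference -0.68 ± 0.62, smaller than or close to their errors. Single arrays moved both values either way: he minus WT was 0.06 without he 3 and -1.30 without he 1, and me minus WT was -0.74 without WT 4 and -0.14 without WT 1. Within set A me was lower than WT by a log2 difference of -0.93, and within set B it was 0.31 higher.

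All 6 Igfbp4 probe sets had a lower mean in me than in WT, by -0.37 to -0.04, and none separated the genotypes. The next 3 in level, 1437406_x_at, 1423757_x_at and 1423756_s_at, ranged over 1.57, 1.53 and 2.12 across arrays, and he 3 was the lowest array at each. Suffixes _x_at and _s_at mark probe sets whose probes can also match other transcripts. The median set-centred Pearson r over the 15 pairs of Igfbp4 probe sets was 0.79, from 0.31 to 0.99 (10 arrays, a description). The 2 dimmest probe sets, 1421991_a_at and 1421992_a_at, were below the array median on 2 and 6 arrays and ranged over 0.36 and 0.62.

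**Figure D2:**
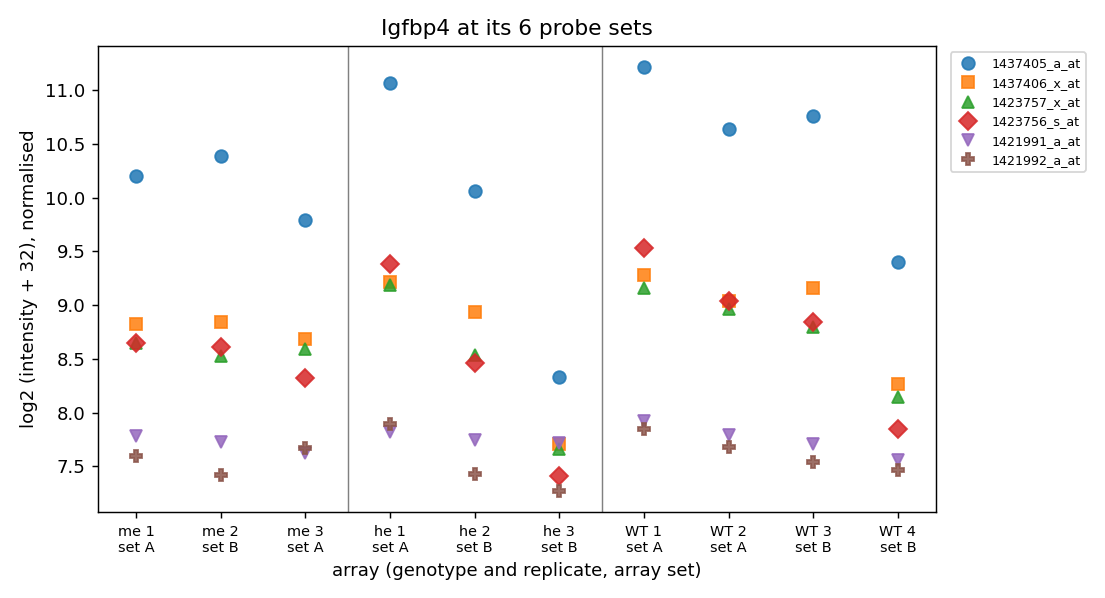
Normalised log2 intensity (vertical axis) of Igfbp4 at its 6 probe sets on each of the 10 arrays (horizontal axis: me, he, WT, with array set). The brightest probe set runs from 8.33 in he 3 to 11.21 in WT 1, and 4 probe sets share the low values of he 3 and WT 4.

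Counted over all 19 probe sets, no member passed in any genotype comparison. In each of the 3 comparisons limma called 0 of 45037 probe sets (0%) at an adjusted p under 0.05. At an unadjusted p under 0.05 there were 280 (0.622%) for me against WT, 134 (0.298%) for he against WT, and me against he gave 301 (0.668%). With array set as a block these were 1934 (4.29%), 961 (2.13%) and 1447 (3.21%). That blocked fit called 3 probe sets (0.00666%) for me against WT, which read Socs2 and Tesc and no member, and 0 in the other comparisons. The mean was lower in me than in WT at 12 of 19 member probe sets (50.1% of all probe sets), lower in he than in WT at 12 of 19 (54%) and lower in me than in he at 12 of 19 (45.8%). Every me array was below every WT array at 1 of 19 member probe sets (0.835% of all probe sets) and above at 0 of 19 (0.804%). Every me array was below every he array at 1 of 19 (1.1%) and above at 0 of 19 (1.62%). Every he array was above every WT array at 1 of 19 (0.469%) and below at 0 of 19 (0.573%). All 3 of these cases are Il6ra probe sets, and nothing is read from the counts because the genes were chosen on such values. At 1 probe set per gene 4 of 8 members were lower in me than in WT (49.8% of all genes), with a median difference of -0.06 (0.00 for all genes). In he 4 of 8 were lower than WT (53.1% of all genes), with a median of 0.06, and 6 of 8 were lower in me than in he (46.4% of all genes), with a median of -0.09. The he and me differences share the WT arrays.

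**Figure D3:**
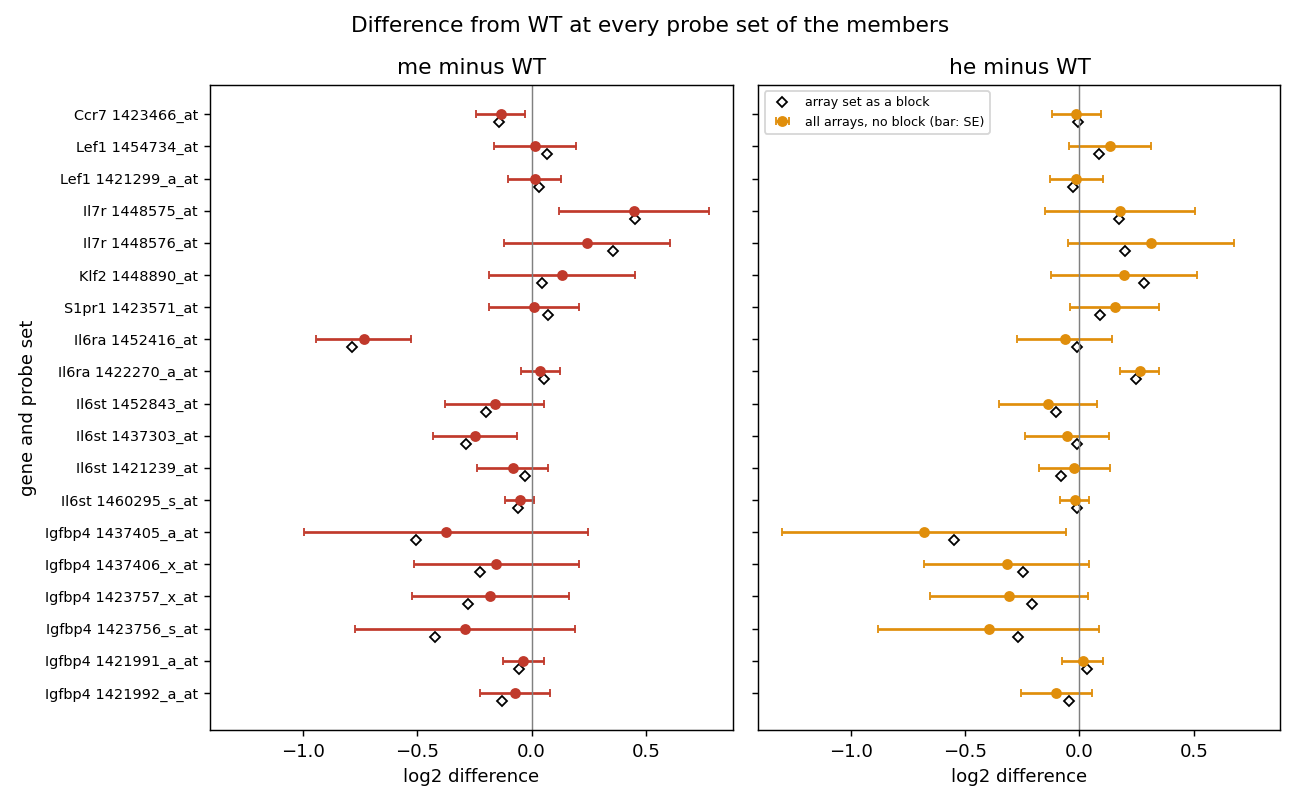
Log2 difference from WT (horizontal axis) at each of the 19 probe sets (vertical axis), for me (left) and he (right), with bars for the SE and open diamonds for the blocked fit (array set). The brighter Il6ra probe set at -0.73 in me stands farthest from 0 against its error, while Igfbp4 has wide errors in both comparisons.

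Much of the variation in these genes ran between arrays of the same genotype. Among the 5 arrays of set B, he 3 and WT 4 were the 2 lowest for Il7r, Klf2 and Igfbp4, and he 3 was the lowest for Il6st. he 3 was among the 2 lowest of its set for 7 of 8 members and WT 4 for 5 of 8. In set A, me 1 and me 3 were so for 6 of 8 each. For every gene 2 of the 5 arrays of a set hold these places. The median set-centred level of the members was -0.13 in me 1 and in me 3, against -0.23 in he 3 and -0.24 in WT 4. The summed linear level of the 8 genes was 5897 in he 3 and 6372 in WT 4, against 7548 to 11106 in the other 8 arrays. Such a sum is weighted towards the brightest genes, here Il7r and Igfbp4 (mean log2 levels of 11.67 and 10.19), and is not a level of the whole set. After the mean of each array set was taken out, Klf2 and Lef1 had a Pearson r of 0.92, Il6st and Igfbp4 of 0.83, Klf2 and Il7r of 0.72, and Il6ra and Il6st of 0.62. Ccr7 was related to none of them above 0.36. These values describe 10 arrays that share 2 sets and 3 genotypes, and no test is attached to them.

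Other genes of naive and quiescent T cells were low in he 3 and WT 4 too, and also in WT 2. Of 22 such genes measured, he 3 was the lowest array of its set at 14 and WT 2 at 13, against 28.1% and 19.5% of all genes, and WT 4 was the lowest at 7 (15.2% of all genes). The median set-centred level of this list was -0.47 in he 3, -0.24 in WT 4 and -0.23 in WT 2, against -0.06 to 0.29 in the other 7 arrays. Of 26 genes of activated and effector T cells, he 3 was the highest array of its set at 13, against 28.4% of all genes. In WT 4 this was so at 5 of 26 (16.9% of all genes), and in me 1, of set A, at 12 of 26 (16.8% of all genes). The list's median was 0.15 in he 3, 0.12 in WT 4 and 0.11 in me 1, and -0.20 in WT 3. Fascin (Fscn1), on the dendritic cell list, was highest in he 3 and WT 4, with log2 levels of 12.92 and 13.08, against 10.79 to 11.88 elsewhere. WT 4 was also the highest array for Flt3 (7.98, a growth factor receptor), Zbtb46 (7.88, a transcription factor), Xcr1 (7.55, a chemokine receptor) and Itgax (7.80, CD11c), by small margins, and he 3 was not. Summed linear levels (intensity plus 32) of the 8 dendritic cell markers were 9054 in he 3 and 10058 in WT 4, against 3000 to 5157 elsewhere, and nearly all of this gap was Fscn1. Without it the other 7 summed to 1317 in he 3 and 1419 in WT 4, against 1234 to 1379 elsewhere, and 3 of the 8 were below the array median on all arrays. Their part in the low values of he 3 and WT 4 was not tested.

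**Figure D4:**
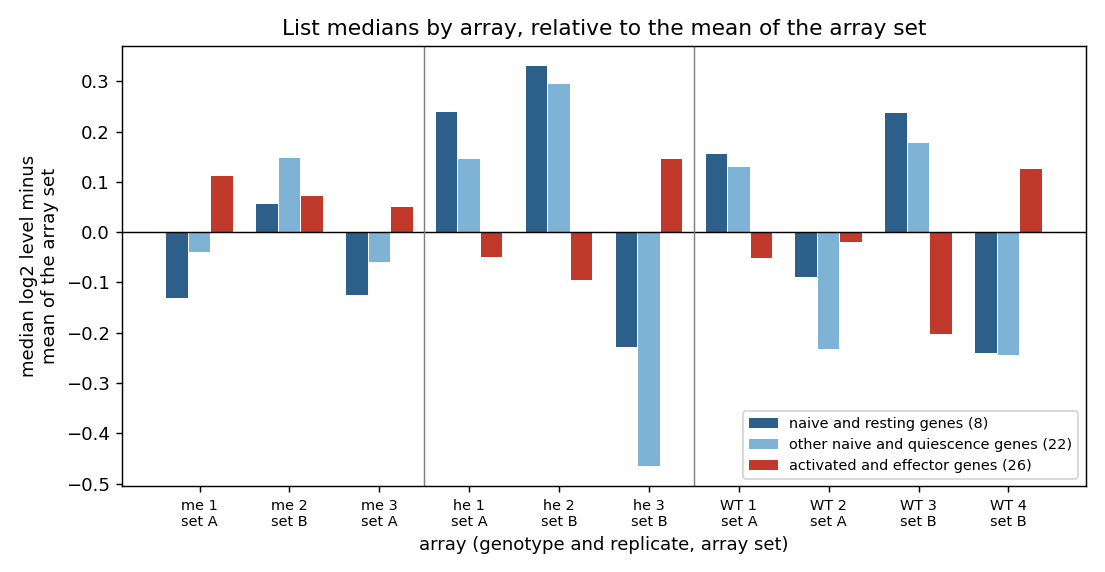
Median set-centred log2 level (vertical axis: level minus the mean of the array set) of 3 gene lists on each array (horizontal axis: me, he, WT). The naive and resting genes and the other naive genes are low together in he 3 (-0.23 and -0.47) and WT 4 (-0.24 for both). The activated list is above 0 there, and also in me 1 (0.11), me 2 (0.07) and me 3 (0.05).

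Between genotypes the other naive and quiescence genes did not move as a group. In me 14 of 22 were higher than in WT and 8 lower, with a median log2 difference of 0.04, 0 called in either direction. Ms4a4b, a membrane protein of resting T cells, differed by 0.35 ± 0.28, Foxp1, a transcription factor that holds T cells quiescent, by -0.39 ± 0.32, and Klf3, a relative of Klf2, by 0.38 ± 0.38. In he 14 of 22 were higher than in WT, with a median of 0.06. Genes of activated and effector T cells were higher in me for 21 of 26, with a median of 0.16 (0.14 with array set as a block) and 0 called. Bhlhe40, a factor that activated T cells switch on, differed by 0.69 ± 0.12 with no overlap, Tnfrsf9 (4-1BB), a costimulatory receptor, by 0.41 ± 0.17, and Cd44, an adhesion receptor that rises on activation, by -0.32 ± 0.14. In he 10 of 26 were higher than in WT (median -0.04), or 18 of 26 with array set as a block (median 0.04). For comparison 9128 of 18193 genes (50.2%) were higher in me.

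The rest of the interleukin 6 pathway did not follow Il6ra. Of 23 ligands, receptors, kinases and inhibitors measured, 16 were higher and 7 lower in me than in WT, with a median of 0.07 and 0 called. Tyk2, a Janus kinase bound to gp130, differed by 0.23 ± 0.15, Ebi3, a subunit of interleukins 27 and 35, by 0.32 ± 0.22, and Il27ra, which pairs with gp130 in the interleukin 27 receptor, by 0.17 ± 0.12. Il27ra shares gp130 with Il6ra and was not lower in me. Il6 itself was below the array median on all 10 arrays.

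Lists around the other members were as near 0. Genes of interleukin 7 and gamma chain signalling were higher in me for 7 of 16 (median -0.02), with Cish, a STAT5 target that restrains cytokine signals, at -0.31 ± 0.22. FOXO and KLF regulators were higher for 9 of 20 (median -0.02). Of these Klf4, a quiescence factor, was lower in every me array than in every WT array (-0.30 ± 0.17). Partners of TCF-1 and LEF-1 were higher for 12 of 21 (median 0.03), with Ctnnb1, the coactivator beta-catenin, at 0.15 ± 0.08. Homing and egress genes were higher for 14 of 20 (median 0.06), or 10 of 20 with array set as a block (median 0.02), with Itgb7, an integrin of gut homing, at 0.38 ± 0.14. The insulin-like growth factor axis was higher for 10 of 18 (median 0.01), with Irs2, an adaptor of its receptor, at 0.31 ± 0.12. In all of these lists 0 genes were called in either direction.

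**Figure D5:**
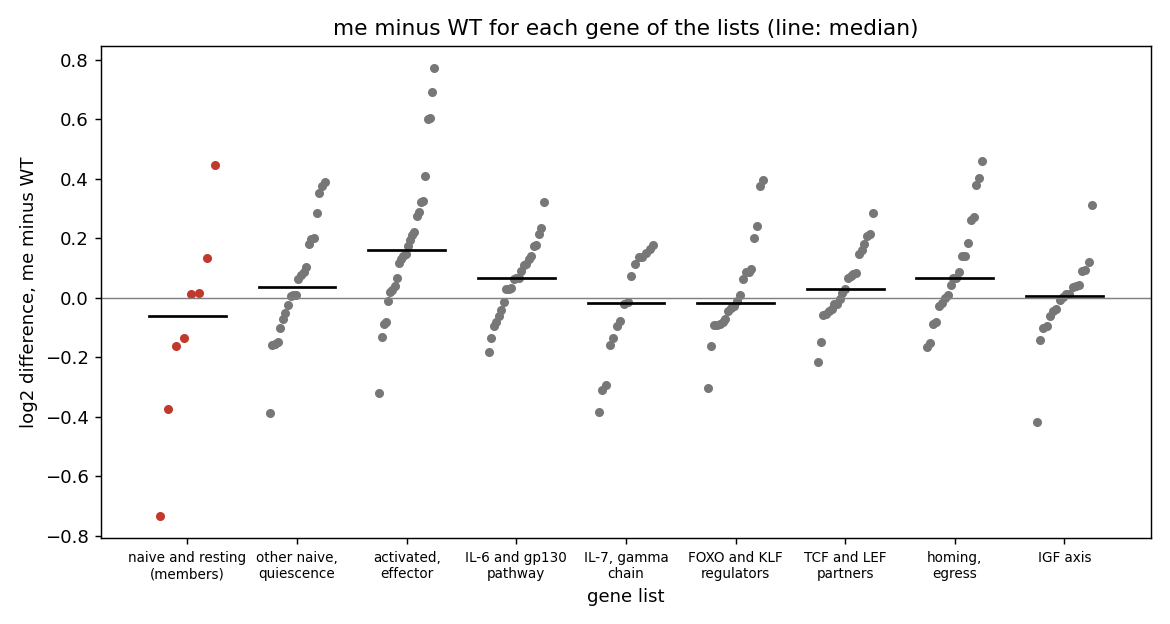
Log2 difference me minus WT (vertical axis) of each measured gene in 9 lists (horizontal axis), with a line at each list's median. The members run from -0.73 (Il6ra) to 0.45 (Il7r) around a median of -0.06, and the activated and effector list has a median of 0.16.

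Some markers of other cells and a measure of RNA quality differed in me and are given beside the Il6ra difference. In bulk samples fewer cells of one type and less RNA per cell cannot be told apart. Summed linear levels of 11 B cell markers were 7874 to 15705 in me, 5372 to 7393 in he and 5351 to 6732 in WT. Of these 7 of 11 were higher in me than in WT (median difference 0.10), or 9 of 11 with array set as a block (median 0.28). Ighm, the immunoglobulin mu heavy chain, was the brightest of them (1.60 ± 0.38 for me minus WT), and the other 10 summed to 2847 to 4381 in me, 2486 to 4691 in he and 2603 to 4354 in WT, which overlapped. Blk, a kinase of B cells and of some gamma delta T cells, was lower in every me array than in every WT array (-0.57 ± 0.23). For 7 plasma cell markers the sums were 3462 to 4764 in me, 2835 to 3790 in he and 3033 to 3990 in WT. Of these 6 of 7 were higher in me than in WT, or 3 of 7 with array set as a block. For 3 of 7 every me array was above every WT array. Without the brightest the other 6 summed to 1523 to 2269 in me, 1173 to 1376 in he and 1183 to 1384 in WT. In that sum every me array was above every he and WT array. Markers of CD8 T cells and natural killer cells numbered 11. Their sums were 3167 to 8450 in me, 2918 to 8352 in he and 2914 to 7112 in WT. Of these 7 of 11 were higher in me than in WT, and 3 of 11 were higher in every me array than in every WT array. Without the brightest the other 10 summed to 2949 to 3194 in me, 2732 to 2827 in he and 2524 to 2751 in WT. Here too every me array was above every he and WT array. For 14 myeloid markers the sums were 2738 to 3597 in me, 2586 to 3197 in he and 2576 to 2850 in WT. In me 13 of 14 were higher than in WT, and for 2 of 14 every me array was above every WT array. Without Lyz2, the brightest, the other 13 summed to 2572 to 2927 in me, 2413 to 2663 in he and 2390 to 2497 in WT. For comparison with these counts of markers, every me array was above every WT array at 0.804% of all probe sets. Markers of innate lymphoid and gamma delta T cells numbered 7. Their sums were 2327 to 3580 in me, 3280 to 5786 in he and 3660 to 4886 in WT. In me 7 of 7 were lower than in WT (median -0.26), or 5 of 7 with array set as a block (median -0.02). Every me array was below every WT array for 3 of 7, against 146 of 18193 genes. Without 5830411N06Rik, the brightest, the other 6 summed to 1688 to 2209 in me, 2139 to 3586 in he and 2536 to 3253 in WT. The 8 markers of T cells and Treg cells summed to 16472 to 18923 in me, 15546 to 17053 in he and 14384 to 15885 in WT. Array intensities have no true zero, and 1 of the 11 B cell, 2 of the 14 myeloid and 0 of the 7 gamma delta markers were below the array median on all arrays. The 3' to 5' ratio of the Gapdh control was 9.92 to 13.83 in me, against 7.84 to 9.71 in he and WT. The part of these in the Il6ra difference was not tested.

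Among genes at or above the median level, Prkag1, a subunit of the energy sensor AMPK, followed Il6ra most closely over the 10 arrays, with a set-centred Pearson r of 0.96. Mdh1, the cytosolic malate dehydrogenase, had 0.94 and the noncoding host gene Snhg1 0.93. Their me minus WT differences were -0.08, -0.22 and -0.35, each smaller than that of Il6ra. Igfbp4 was followed most closely by Zbtb24 (0.99), a zinc finger protein, H2-Ke6 (0.97) and Btg2 (0.97), an antiproliferative gene. Nearest to Klf2 were Kmt2c (0.95), a histone methyltransferase, Bach2 (0.94), a repressor that keeps T cells naive, and Smc6 (0.94). Nearest to Il7r were Zfp53, Tmem181a and Parp8 (0.96 each). These r are among the 3 highest of 9089 genes searched for each member over 10 arrays and are a description only.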

How the data were processed

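The authors deposited 1 intensity per probe set and array on a linear scale. How they summarised, corrected and scaled the probes is not given in the sources used here. Per the labels' protocols, RNA was amplified from 20 ng of total RNA and 10 ug of amplified RNA was labelled with biotin. The number of arrays limits the precision.

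All 45101 probe sets were transformed as log2(intensity + 32) and quantile normalised, since array medians ran from 148 to 188, and 64 controls were then left out, leaving 45037. Genes came from GEO's platform annotation, updated through gene IDs in RefSeq (GRCm38.p6): 34945 probe sets had 1 gene, 932 several and 9160 none listed. Where 1 probe set stands for a gene it is the one with the highest mean over all arrays.

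limma 3.58.1 in R 4.3.3 (lmFit and eBayes, 7 residual degrees of freedom) was fitted to all 10 arrays, with Benjamini-Hochberg adjustment over all 45037 probe sets, and checked on simulated data. There the fit without a block called 9 of 67 log2 changes of 0.5 in me and 31 of 67 changes of 1. With array set as a block it called 47 of 67 and 62 of 67, with 11 false calls. Where 0 genes were called, changes of these sizes can therefore have been missed. Array sets are 2 clusters of arrays by average linkage on correlation (r of 0.970 to 0.996 within and 0.854 to 0.944 between sets). The members, lists and tests were chosen with earlier results of these data known. Named are all members, up to 3 genes of each list with the smallest p for me against WT, and the 3 genes most like a member. The dendritic cell markers, Il6, Cd3e, Cd4 and Foxp3 are named outside this rule, after their values were seen, as are genes called in a few settings. Alternatives covered the pseudocount, normalisation, a filter on low values, prior, array weights, blocks, the groups fitted and each array left out. Sequences are RefSeq's.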

Additional observations from a re-analysis of the deposited data

How the results depend on the processing

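Il6ra at its brighter probe set kept a negative me minus WT difference in the 36 other settings run on it, from -0.87 to -0.53 (array weights), and the mean of both its probe sets gave -0.35. Il7r kept a positive one in 37 settings, from 0.07 (array weights) to 0.87 (within array set B). Among the others the sign of the me minus WT difference changed in 10 settings for Lef1, 7 for Klf2, 5 for S1pr1 and 1 each for Ccr7 and Igfbp4. The count of members lower in me than in WT (4 of 8) was 2 within array set B, and 4 to 6 with each array left out or 4 to 7 with the block as well. The count lower in he was 1 within array set A, 1 with array weights, 2 without WT 4 and he 3 (1 with the block as well), and 1 to 5 with each array left out, with or without the block (1 without he 3). Probe sets called for me against WT numbered 3 with array set as a block, 2 with array weights and 1 without WT 4 and he 3 in the blocked fit (Hmgn3). Leaving out each array gave 0 to 2 without the block (2 without me 2) and 0 to 5 with it (5 without he 2). For me against he and for the F test over genotypes it gave 0 to 2, with or without the block. No member was among the genes called in settings with 5 or fewer calls. Array weights gave 27308 calls for me against he and 22802 in the F test. Those weights did not converge and put 26.6 on me 3, against 0.268 on he 1, so these counts are not read. Of the genes on the lists 0 were called, and 1 (Jchain) with array weights and without me 2, a range of 0 to 1. With the replicate number as a replicate block 0 probe sets were called in each comparison and the Il6ra difference was -0.87. Deviations of same-numbered arrays from their genotype means correlated from -0.87 to 0.94, positive within an array set and negative across sets. They follow the array sets, so whether the numbers pair the arrays cannot be told from them. No detection calls were used, so dim probe sets such as 1460295_s_at cannot be told from background.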
